A study of Homo sapiens with 11 samples.

Results

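The genes described here are 33 of the 23609 gene symbols measured, chosen by name as the genes of cholesterol and fatty acid synthesis. They comprise 18 enzymes of sterol synthesis, 6 genes of sterol sensing and transport, 7 enzymes of fatty acid synthesis and 2 sterol exporters. All 33 had a row in the files, each at 1 locus, with SC5D listed under its older symbol SC5DL. All 33 passed the filter on low values and none was listed at 0 in any library. RNA was sequenced from A549, an established human lung adenocarcinoma line. The 4 groups were CSC (cigarette smoke condensate, smoke particulates dissolved in a carrier) for 2 weeks with 3 libraries, the vehicle DMSO for 2 weeks with 3, CSC for 48 hours with 3, and DMSO for 48 hours with 2 (replicates 2 and 3). The labels give 20 µM as the concentration of CSC, although a mixture has no molar mass. Whether replicates came from different cultures is not in the labels. The p-values therefore reflect the spread among libraries, which may be technical. In bulk RNA, fewer cells that express a gene and less RNA per cell cannot be told apart.

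Cells build cholesterol from acetyl-CoA through the mevalonate pathway, squalene and lanosterol. When sterols run low, the membrane-bound factors SREBP-1 and SREBP-2, encoded by SREBF1 and SREBF2, are escorted by SCAP from the endoplasmic reticulum, cleaved, and switch on the genes of this pathway, while INSIG proteins hold them back when sterols are plentiful. SREBP-1 chiefly drives fatty acid synthesis and SREBP-2 chiefly sterol synthesis. When oxidised sterols accumulate, the nuclear receptors LXR-alpha and LXR-beta switch on the exporters ABCA1 and ABCG1, SREBF1, SCD and MYLIP, among other genes. Alveolar type 2 cells of the lung, which A549 cells are often used to model, make lipid for surfactant.

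The sequences before 3 gene starts are shown because they differ in the letters marked. None of the 3 held the sterol regulatory element as searched for below. ABCA1 is the member that changed with CSC, and HMGCS1 and SCD stand for the sterol and the fatty acid enzymes. The bases are the 250 before the start, 5′ to 3′ on the gene's strand, from RefSeq on GRCh38.p14, which is not the hg19 build of the expression files. In ABCA1 (chr9:104928156-104928405, minus strand) the capitals mark an E-box, CACGTG, and a run of 16 bases. That run matches the LXR-type repeat, a pair of AGGTCA copies in the same direction with 4 bases between, on the other strand with at most 2 mismatches. In HMGCS1 (chr5:43313413-43313662, minus strand) and SCD (chr10:100346983-100347232, plus strand) the capitals mark the NF-Y box, CCAAT, or its complement on the other strand, ATTGG. NF-Y is known to act with SREBPs.
ABCA1: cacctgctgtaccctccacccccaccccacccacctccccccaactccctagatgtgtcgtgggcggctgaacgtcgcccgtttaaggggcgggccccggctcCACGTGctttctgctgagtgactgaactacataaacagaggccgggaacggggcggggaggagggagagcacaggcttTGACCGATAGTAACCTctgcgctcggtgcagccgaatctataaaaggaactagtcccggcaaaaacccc
HMGCS1: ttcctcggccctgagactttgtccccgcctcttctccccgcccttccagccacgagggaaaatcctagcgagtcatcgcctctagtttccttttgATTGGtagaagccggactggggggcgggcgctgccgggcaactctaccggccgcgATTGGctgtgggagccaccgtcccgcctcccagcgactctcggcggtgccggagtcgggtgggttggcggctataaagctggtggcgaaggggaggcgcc
SCD: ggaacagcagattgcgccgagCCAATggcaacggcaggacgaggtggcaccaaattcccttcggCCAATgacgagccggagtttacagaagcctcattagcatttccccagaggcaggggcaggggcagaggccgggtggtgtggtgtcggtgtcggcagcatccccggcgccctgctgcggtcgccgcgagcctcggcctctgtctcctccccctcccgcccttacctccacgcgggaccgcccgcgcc

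Of the 33 members, 28 had such a sequence, and each motif was searched on both strands of the 250 bases, taking any listed start of a gene. FASN, ABCG1, ACAT2, SQLE and FDFT1 had none. The NF-Y box stood before 13 of 15 sterol synthesis genes, 3 of 6 sensing and transport genes and 3 of 6 fatty acid genes, against 37.0% of the 27305 genes in the table. It was not found before ABCA1. The E-box stood before 4 of the 28 (ABCA1, INSIG1, SCAP and SC5D), against 7.73% of all genes. The spaced repeat of AGGTCA, with up to 2 mismatches, was found before ABCA1 and no other of the 28, against 2.53% of all genes, and this search was chosen after the values were known. The sterol regulatory element, written TCACNCCAC and searched with no mismatch allowed, was found before SREBF2 alone, against 1.09% of all genes. Looser forms of that element were not searched, so its count cannot be set beside that of the AGGTCA repeat. These matches describe letters and are not shown to be bound.

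The libraries had summed FPKM (fragments per kilobase of transcript, scaled by the mapped fragments of the library) of 338507 to 484053, with CSC 2 weeks replicate 1 the highest. Depth in reads is unknown, and the width of the deposited bounds put CSC 2 weeks replicate 2 at 2.67 times the shallowest library and the other 10 between 1 and 1.36. The epithelial keratin KRT8 ranged from 573 to 1745 FPKM and KRT18 from 616 to 1765, while the surfactant gene SFTPC reached at most 0.157 and NKX2-1 at most 0.0566, so defining markers of the alveolar type 2 cell were near 0. Of 4 leukocyte markers PTPRC reached 0.0282 FPKM and CD3E 0.0916, while CD68 was at 3.81 to 7.24 and CD14 at 0.676 to 3.76. Their sum was 8.01 to 11.02 FPKM in CSC against 7.47 to 7.73 in DMSO at 2 weeks, and 5.44 to 6.12 in CSC against 5.696 to 5.998 in DMSO at 48 hours. The endothelial PECAM1 reached 0.0236 FPKM. The fibroblast genes DCN and COL1A2 were listed at 0 in all 11 libraries, and COL1A1 was at 3.73 to 11.5 FPKM. The summed FPKM of the 6 epithelial markers was 2935 to 4027 in CSC against 4270 to 4915 in DMSO at 2 weeks, and 2129 to 2445 in CSC against 3019 to 3081 in DMSO at 48 hours. The part of these differences in the results below was not tested. CYP1B1, a target of the aryl hydrocarbon receptor that smoke constituents activate, averaged 61.8 ± 9.34 FPKM in CSC and 11.4 ± 1.34 in DMSO at 2 weeks, and 47.1 ± 19.6 in CSC and 6.39 ± 1.36 in DMSO at 48 hours (SD).

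FPKM is scaled by length, so levels can be set side by side between genes. The 5 members with the highest mean FPKM over the 11 libraries were fatty acid enzymes, at 239 for SCD, 180.4 for ACLY, 152 for FADS2, 93.0 for FADS1 and 80.8 for FASN. ACACA, at 28.2, and ELOVL6, at 12.2, lay among the sterol enzymes. The ranges of SCD and ACLY overlapped, and in DMSO at 2 weeks ACLY averaged 222 FPKM and SCD 176. SCD makes monounsaturated fatty acids, ACLY makes cytosolic acetyl-CoA, and FASN builds palmitate. Sterol synthesis enzymes spanned mean FPKM of 3.49 for SC5D to 52.7 for CYP51A1, the lanosterol demethylase. The neighbours EBP and SQLE, at 43.0 and 43.5, overlapped in their ranges of 32.0 to 52.6 and 36.3 to 52.9 FPKM. SREBF1, at a mean FPKM of 55.3, stood above SREBF2, at 24.4, and their ranges over the libraries, 39.1 to 82.2 and 17.3 to 30.8, did not overlap. The exporters were the lowest class, at 4.48 for ABCA1 and 1.47 for ABCG1.

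**Figure D1:**
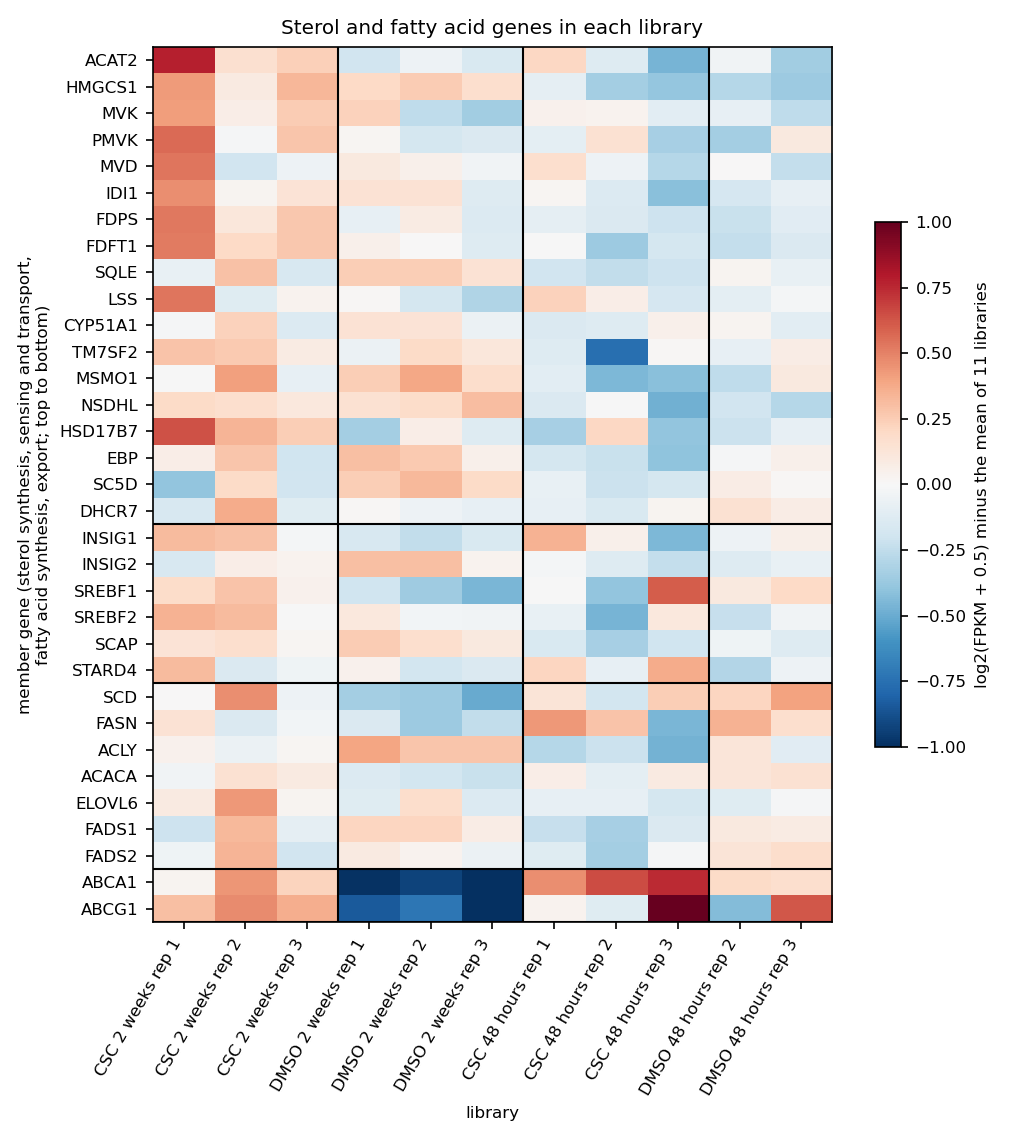
Each row is a member and each column a library; colour gives log2(FPKM + 0.5) minus the mean of that member over the 11 libraries, on a scale that stops at 1 and -1. ABCA1 and ABCG1 are darkest blue in the 3 DMSO libraries of 2 weeks, and most sterol synthesis genes are red in CSC 2 weeks replicate 1. That library was the highest of its group for 12 of the 18 sterol synthesis genes, and for 52.2% of all genes tested.

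The exporters had the largest log2 changes with CSC among the members at both times, though 1 of these changes passed the test, that of ABCA1 at 2 weeks. ABCA1, which loads cholesterol and phospholipid onto apolipoprotein A-I (hg19, chr9:107543284-107690527), was measured at 4.16, 5.72 and 4.84 FPKM in the CSC libraries of 2 weeks, against 1.81, 1.91 and 1.80 in the DMSO libraries of 2 weeks. At 48 hours it was at 5.81, 6.69 and 7.16 FPKM in CSC, against 4.73 and 4.64 in DMSO. At each time all CSC libraries lay above all DMSO libraries of that time, and the 3 DMSO libraries of 2 weeks were the lowest of the 11. At 2 weeks ABCA1 averaged 4.91 ± 0.784 FPKM in CSC and 1.84 ± 0.0583 in DMSO (SD, n = 3 each). The log2 change, taken as the difference of log2(FPKM + 0.5), was 1.20 ± 0.12 (SE) and passed the threshold of an adjusted p under 0.05 (limma with Benjamini-Hochberg adjustment, adjusted p = 2.05e-04). It rose in each of the 21 alternative fits, with log2 changes of 1.05 to 1.36 and adjusted p of 1.12e-04 to 0.00211 (limma). At 48 hours its log2 change was 0.44 ± 0.14, with a 95% interval of 0.14 to 0.74, and missed the threshold (limma, adjusted p = 0.287, and 0.174 to 0.780 over the alternatives).

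ABCA1 was also the member that fell with time in the vehicle. It averaged 1.84 ± 0.0583 FPKM in DMSO at 2 weeks and 4.68 ± 0.0618 in DMSO at 48 hours (SD, n = 3 and 2), and the log2 change was -1.15 ± 0.14 (limma, adjusted p = 0.00181). In CSC it averaged 4.91 ± 0.784 FPKM at 2 weeks and 6.55 ± 0.687 at 48 hours, with a log2 change of -0.39 ± 0.12 (limma, adjusted p = 0.0537). That change passed under median-of-ratios scaling (limma, adjusted p = 0.0469), a common sum (0.0376), the replicate number as a block (0.0378) and without CSC 2 weeks replicate 2 (0.0225). Both CSC comparisons and both time comparisons share libraries, and the DMSO group of 2 weeks enters the CSC effect at 2 weeks and the time effect in DMSO.

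ABCG1, which passes cholesterol on to lipoprotein particles (hg19, chr21:43619799-43717354), was at 1.65, 1.93 and 1.75 FPKM in CSC and at 0.477, 0.562 and 0.326 in DMSO at 2 weeks. At 48 hours it was at 1.29, 1.11 and 4.13 FPKM in CSC and at 0.796 and 2.19 in DMSO. The groups did not overlap at 2 weeks but did at 48 hours, where CSC replicate 3 was far above the other CSC libraries. The log2 change at 2 weeks was 1.26 ± 0.36 and missed the threshold (limma, adjusted p = 0.0592). It passed in 6 of 20 alternative fits, among them a pseudocount of 0.1 (limma, log2 change 1.78, adjusted p = 0.0394), a replicate block (0.0418), a fit restricted to the 6 libraries of 2 weeks (8.90e-04), and a fit without CSC 48 hours replicate 3 (0.00790). Over all 20 the adjusted p ran from 8.90e-04 to 0.198. At 48 hours the log2 change was 0.35 (limma, adjusted p = 0.903), and it ran from -0.18 to 0.87 with 1 library left out.

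**Figure D2:**
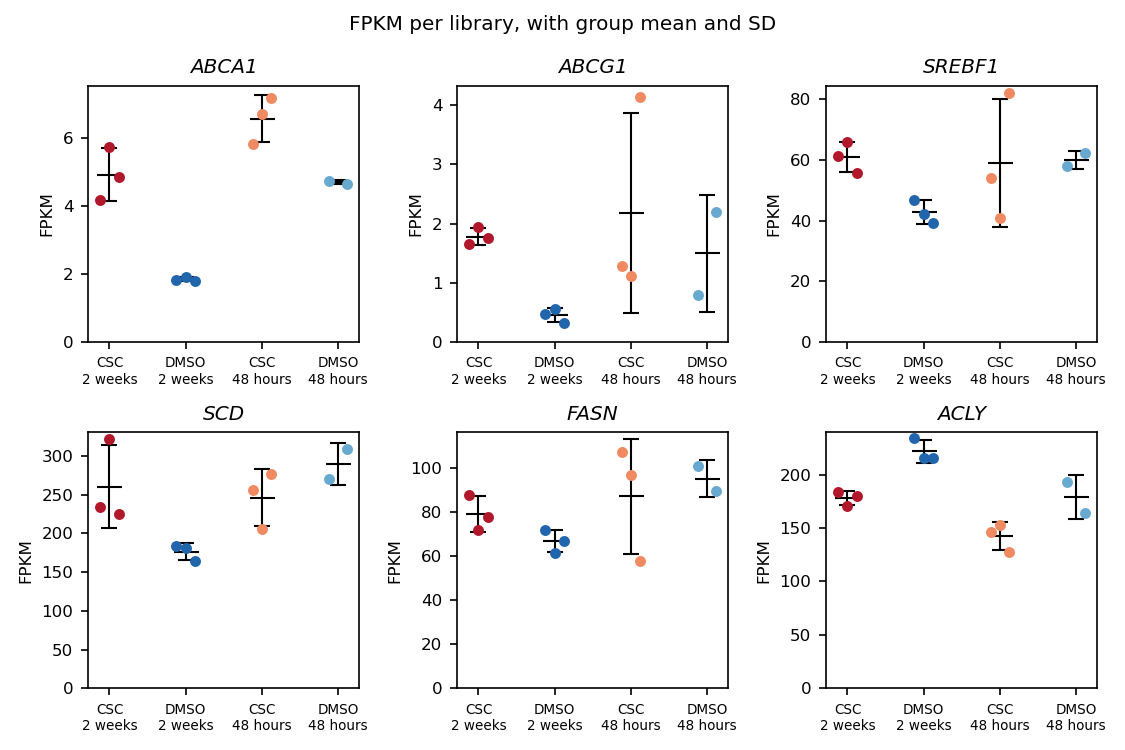
Points are FPKM in single libraries, the horizontal bar is the group mean and the error bar the SD, for 6 members in CSC and DMSO at 2 weeks and at 48 hours; each axis starts at 0. The 3 DMSO libraries of 2 weeks lie below the CSC libraries of 2 weeks for ABCA1, ABCG1, SREBF1, SCD and FASN, and above them for ACLY.

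At 2 weeks 1 of the 33 members, ABCA1, rose and 0 fell by limma, where 3.01% of the 12506 genes tested rose, 2.40% fell and 5.41% did either. A further 13 members had an unadjusted p under 0.05, which makes 14 of 33 where 24.6% of all genes tested had one. The median log2 change of the 33 was 0.16, against 0.09 over all genes tested, and 23 were positive where 65.1% of all genes were. The CSC and DMSO libraries did not overlap for 11 members higher in CSC and 1 lower, where the shares of all genes were 20.3% and 9.84%. Scaling each library to a common sum moved the median of all genes to -0.03 and that of the members to 0.02. The genes RMRP and RPPH1 together held 19.2% (CSC 2 weeks replicate 3) to 24.4% (CSC 48 hours replicate 3) of that sum, so this scaling depends partly on them. Over all genes 376 rose and 300 fell, against 289 and 460 under median-of-ratios scaling, 264 and 487 with a common sum and 325 and 441 under quantile normalization.

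The 18 sterol synthesis enzymes had a median log2 change of 0.10 at 2 weeks, with 12 positive and 0 called by limma (6 higher and 1 lower at an unadjusted p under 0.05). Over all genes the median was 0.09, 65.1% were positive and 24.6% had such a p in either direction. The sterol median was -0.04 with a common sum and 0.01 under median-of-ratios scaling. HMGCS1, which makes the precursor HMG-CoA, was at 24.1, 19.1 and 22.6 FPKM in CSC, against 20.5, 21.4 and 20.1 in DMSO, and the groups overlapped (log2 change 0.08, limma, adjusted p = 0.710, 95% interval -0.17 to 0.32). SQLE, the epoxidase that opens the sterol branch, was at 41.0, 52.9 and 38.6 FPKM in CSC, against 51.1, 51.1 and 47.7 in DMSO. CSC replicate 2 lay above the DMSO libraries and the other CSC libraries below them. HSD17B7, a reductase of the late pathway with near-identical pseudogene copies that can share its reads, was at 6.15, 4.90 and 4.56 FPKM in CSC and at 2.87, 3.97 and 3.41 in DMSO. Its log2 change of 0.54 ± 0.17 missed the threshold (limma, adjusted p = 0.0823).

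ACAT2, FDPS and FDFT1, which act early, at the branch to prenyl groups and at squalene, were the other sterol enzymes whose CSC libraries all lay above DMSO at 2 weeks. Their log2 changes were 0.52 ± 0.18 for ACAT2, 0.35 ± 0.12 for FDPS and 0.35 ± 0.12 for FDFT1 (limma, adjusted p = 0.112, 0.0979 and 0.102). FDPS also has processed pseudogenes, so its value is uncertain. With HSD17B7, these enzymes made 4 of 18 higher without overlap, where 20.3% of all genes were. The remaining 14 enzymes overlapped between the groups, from -0.38 for SC5D, a late desaturase, to 0.38 for PMVK, phosphomevalonate kinase.

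**Figure D3:**
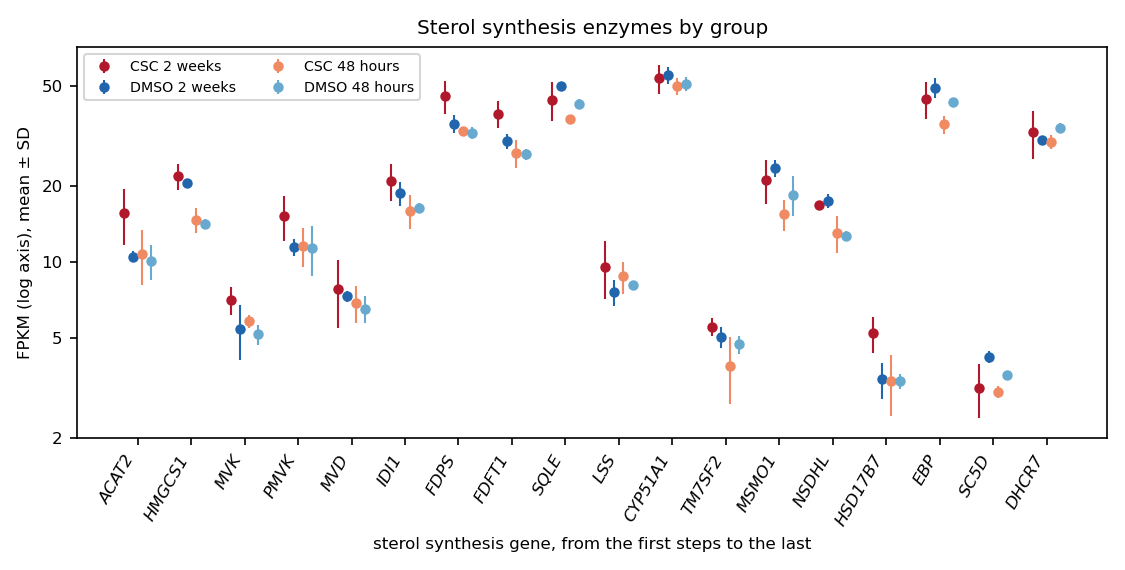
Points are group means of FPKM on a log axis and bars the SD, for the 18 sterol synthesis enzymes ordered from the first steps of the pathway to the last, in CSC and DMSO at 2 weeks and at 48 hours. HSD17B7 averaged 5.20 FPKM in CSC at 2 weeks and 3.42 in DMSO at 2 weeks, while CYP51A1 averaged 53.8 and 55.4.

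Among the sensing and transport genes 0 of 6 were called at 2 weeks by limma (2 at an unadjusted p under 0.05). Of all genes 24.6% had such a p. SREBF1 was at 61.3, 65.9 and 55.8 FPKM in CSC, against 46.9, 42.0 and 39.1 in DMSO at 2 weeks. The groups did not overlap, and the log2 change of 0.51 ± 0.19 missed the threshold (limma, adjusted p = 0.137) but passed without CSC 48 hours replicate 3 (0.0272) and with the 6 libraries of 2 weeks fitted alone (0.0299). SREBF2 was at 30.8, 30.2 and 24.0 FPKM in CSC and at 26.0, 23.7 and 23.5 in DMSO, and the groups overlapped (log2 change 0.20 ± 0.15, limma, adjusted p = 0.409). INSIG1, itself a target of SREBPs, was at 24.3, 23.8 and 19.0 FPKM in CSC and at 17.3, 16.2 and 17.4 in DMSO. The groups did not overlap, with a log2 change of 0.38 ± 0.17 (limma, adjusted p = 0.189). STARD4, a carrier of cholesterol between membranes, was at 5.36, 3.75 and 4.06 FPKM in CSC and at 4.34, 3.64 and 3.75 in DMSO at 2 weeks, and the groups overlapped.

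The fatty acid enzymes went different ways, and 0 of 7 were called at 2 weeks by limma (2 higher and 1 lower at an unadjusted p under 0.05). Of all genes 24.6% had such a p in either direction. SCD (hg19, chr10:102106772-102124588) was at 234, 322 and 225 FPKM in CSC, against 184, 181 and 164 in DMSO. The groups did not overlap, and the log2 change of 0.54 ± 0.16 had a limma adjusted p of 0.0659, which was 0.0454 without CSC 48 hours replicate 3. FASN was at 87.6, 71.8 and 77.6 FPKM in CSC, against 71.6, 61.6 and 66.7 in DMSO, just without overlap (log2 change 0.24 ± 0.19, limma, adjusted p = 0.451). ACLY (hg19, chr17:40023179-40075272) was at 183, 171 and 180.5 FPKM in CSC, against 234, 216 and 215 in DMSO. It was the member whose CSC libraries all lay below DMSO at 2 weeks. Its log2 change of -0.31 ± 0.11 missed the threshold (limma, adjusted p = 0.122), and ACLY passed as lower under each of the 3 other scalings, with adjusted p of 0.0404 for median of ratios, 0.0236 for a common sum and 0.00542 for quantile normalization.

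**Figure D4:**
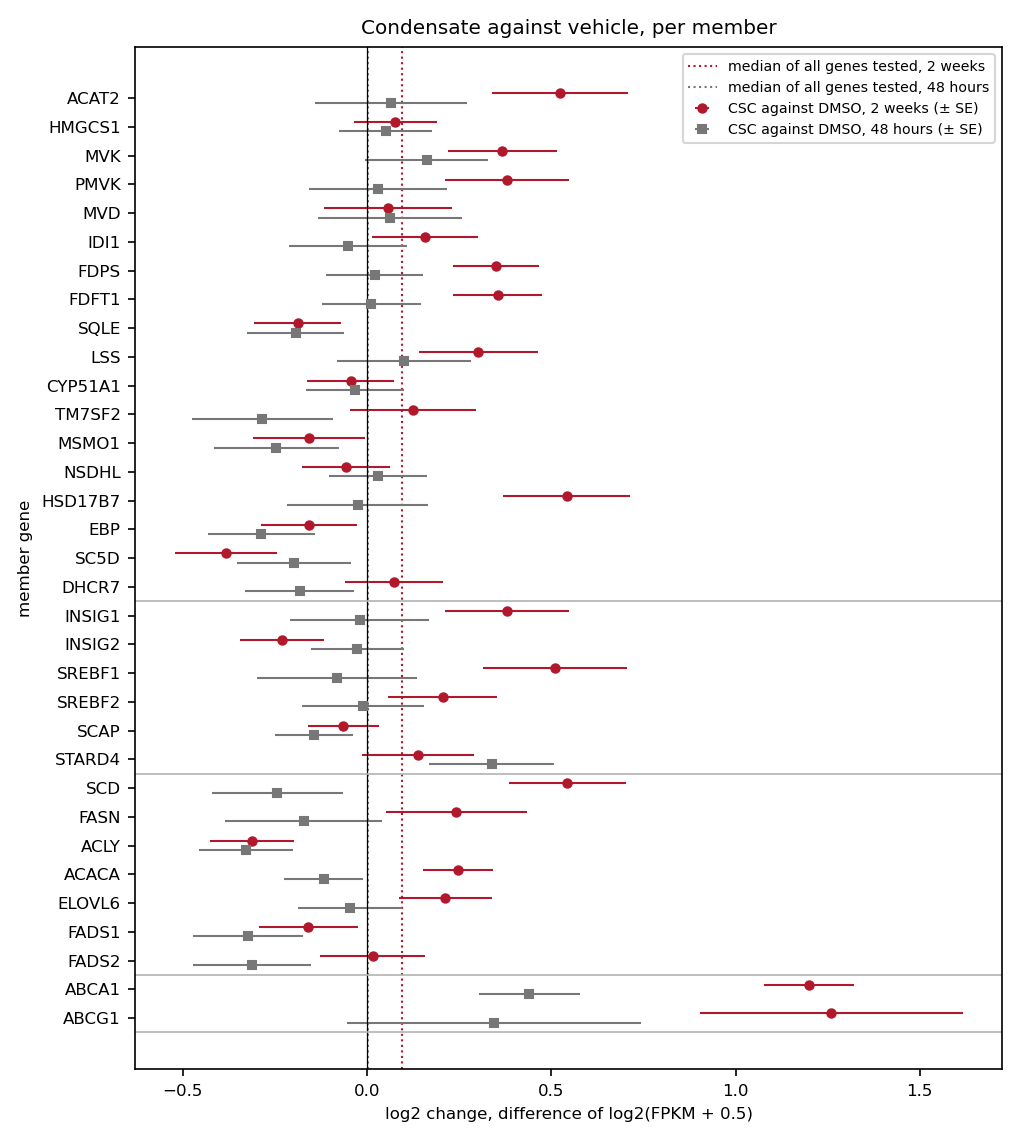
Log2 change (difference of log2(FPKM + 0.5)) of each member for CSC against DMSO at 2 weeks (circles) and at 48 hours (squares), with SE bars; dotted lines give the median of all genes tested. ABCA1 at 1.20 and ABCG1 at 1.26 lie farthest right at 2 weeks, and the 7 fatty acid enzymes lie left of 0 at 48 hours.

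CSC 2 weeks replicate 2, the deepest library as estimated from the deposited bounds, stood apart in these genes. It was the highest of the 3 CSC libraries of 2 weeks for 16 of the 33 members, where it was highest for 19.9% of all genes tested, and replicate 3 was highest for 0 of 33, against 27.8%. FADS1 and FADS2, the desaturases of polyunsaturated fatty acids, show the split. FADS1 was at 79.5, 115 and 86.2 FPKM in CSC, against 107, 107 and 96.9 in DMSO at 2 weeks. FADS2 was at 146, 191 and 131 FPKM in CSC, against 159.8, 154 and 144 in DMSO. Replicate 2 lay above all DMSO libraries in both genes. Without that library FDPS (log2 change 0.44, limma, adjusted p = 0.0279) and FDFT1 (0.42, 0.0483) rose beside ABCA1, and SQLE (-0.32, 0.0392) and SC5D (-0.54, 0.0170) fell. Without it 1310 genes in all were higher and 534 lower. The part of depth in this split was not tested.

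At 48 hours 0 of the 33 members were called by limma, where 0.288% of the genes tested were (0.104% higher and 0.184% lower), and 0 in any alternative fit, robust eBayes included. ABCA1 and ACLY had an unadjusted p under 0.05, which makes 2 of 33 where 8.49% of all genes had one. The 18 sterol synthesis enzymes split evenly, with 9 positive and a median log2 change of -0.01, which was 0.03 after scaling to a common sum and also after quantile normalization. With 1 library of 48 hours left out that median ran from -0.06 (5 positive without CSC replicate 1, 7 without CSC replicate 2 or DMSO replicate 2) to 0.06 (11 positive without CSC replicate 3). With a replicate block it was -0.05, with 2 positive. The changes ran from -0.29 for EBP, an isomerase of the late pathway, to 0.16 for MVK, mevalonate kinase. SQLE was at 37.6, 36.3 and 37.3 FPKM in CSC, against 43.9 and 41.0 in DMSO. HMGCS1 was at 16.7, 14.0 and 13.5 FPKM in CSC, against 14.6 and 13.8 in DMSO, so that its groups overlapped while those of SQLE did not.

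All 7 fatty acid enzymes had negative log2 changes at 48 hours, from -0.05 for ELOVL6, which lengthens palmitate, to -0.33 for ACLY, with a median of -0.24 against 0.00 over all genes tested. None passed the test (1 at an unadjusted p under 0.05), and 7 were negative under each of the 3 other scalings, while 6 were without DMSO 48 hours replicate 3 or without CSC 48 hours replicate 3. ACLY was at 146, 153 and 128 FPKM in CSC, against 193 and 164 in DMSO (limma, adjusted p = 0.472). FADS1 was at 78.5, 73.2 and 83.2 FPKM in CSC, against 98.6 and 97.4 in DMSO (log2 change -0.32 ± 0.15, limma, adjusted p = 0.594). SCD was at 256, 205 and 276 FPKM in CSC, against 270.2 and 309 in DMSO. CSC and DMSO did not overlap for ACLY, ACACA, FADS1 and FADS2 and overlapped for SCD. In all, 9 of the 33 members lay lower in CSC without overlap, where 11.8% of all genes did, and 1, ABCA1, lay higher. The share of all genes that lay higher is not given here.

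CSC 48 hours replicate 3 stood apart from its group in several members. It was the highest of the 3 CSC libraries of 48 hours for 12 of the 33 members and the lowest for 16. Over all genes tested it was the highest for 43.2% and the lowest for 36.7%, so this was not particular to the members. SREBF1 was at 54.0, 40.9 and 82.2 FPKM in CSC and at 57.9 and 62.2 in DMSO at 48 hours, and FASN was at 107, 96.9 and 57.6 in CSC and at 101 and 89.3 in DMSO. INSIG1 was at 24.7, 20.1 and 14.0 FPKM in CSC and at 18.7 and 20.1 in DMSO. That library held the highest SREBF1 and ABCG1 of the 11 and the lowest FASN and INSIG1. SREBF2 was at 22.9, 17.3 and 26.0 FPKM in CSC and at 20.5 and 23.5 in DMSO. STARD4 was at 4.96, 3.94 and 5.60 FPKM in CSC and at 3.35 and 4.05 in DMSO, and its log2 change of 0.34 ± 0.17 missed the threshold (limma, adjusted p = 0.646). The groups overlapped for all of these genes.

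The difference between the CSC effects, 2 weeks minus 48 hours, was called for 0 of the 33 members by limma, where 0.0400% of all genes were (0.00800% higher and 0.0320% lower). Of the members, 4 had an unadjusted p under 0.05, where 7.00% of all genes had one. They were ABCA1 at 0.76 ± 0.18 (limma, adjusted p = 0.550), SCD at 0.79 ± 0.24 (0.590), ACACA at 0.36 ± 0.14 (0.676) and HSD17B7 at 0.57 ± 0.26 (0.702). The 95% interval for ABCA1 ran from 0.36 to 1.16 and that for SCD from 0.27 to 1.30. So the CSC effect was not shown to differ between the times for any member.

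In the vehicle, ABCA1 was 1 of 33 members that fell with time by limma, where 0.112% of all genes fell, and 0 members rose, where 0.656% did and 0.768% changed in either direction. Over all genes 82 rose and 14 fell, against 43 and 16 under median-of-ratios scaling, 32 and 14 with a common sum and 41 and 19 under quantile normalization. At an unadjusted p under 0.05 there were 11 members, where 12.8% of all genes had one. Members moved in both directions without passing the test. HMGCS1 had a log2 change of 0.53 ± 0.13 (limma, adjusted p = 0.0861) and averaged 20.7 ± 0.627 FPKM in DMSO at 2 weeks and 14.2 ± 0.596 at 48 hours. SCD had one of -0.71 ± 0.18 (limma, adjusted p = 0.0972) and averaged 176 ± 10.7 FPKM at 2 weeks and 289 ± 27.2 at 48 hours. SREBF1 (-0.49 ± 0.22, limma, adjusted p = 0.374), FASN (-0.51 ± 0.21, 0.340) and ABCG1 (-0.98 ± 0.40, 0.332) had negative changes too. With the DMSO libraries fitted alone, HMGCS1 and NSDHL, a decarboxylating enzyme of sterol synthesis, rose and SREBF1, SCD, FASN and ABCA1 fell, while SCD also fell without CSC 2 weeks replicate 2 and NSDHL also rose without CSC 48 hours replicate 3. DMSO libraries of the 2 times did not overlap for 11 members higher and 9 lower at 2 weeks, where the shares of all genes were 28.8% and 7.88%.

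In CSC, 5 of 33 members rose with time by limma and 0 fell, where 12.3% of all genes rose, 1.38% fell and 13.7% did either. At an unadjusted p under 0.05 there were 16 members, where 34.4% of all genes had one. The all-gene median log2 change was 0.19, and the share of members that rose was near that background. The 5 were HMGCS1 (0.55 ± 0.11, limma, adjusted p = 0.0181), FDFT1 (0.51 ± 0.12, 0.0251), FDPS (0.45 ± 0.12, 0.0322), HSD17B7 (0.58 ± 0.17, 0.0443) and SCAP (0.34 ± 0.10, 0.0405). FDFT1 was at 44.1, 35.3 and 37.1 FPKM in CSC at 2 weeks, against 30.6, 23.7 and 27.0 in CSC at 48 hours. FDPS was at 52.9, 39.7 and 44.3 FPKM in CSC at 2 weeks, against 34.5, 33.04 and 31.7 in CSC at 48 hours. SCAP was at 19.4, 19.8 and 17.8 FPKM in CSC at 2 weeks, against 15.8, 13.8 and 15.3 in CSC at 48 hours. In these 3 genes all CSC libraries of 2 weeks lay above those of 48 hours. So did those of HSD17B7, narrowly, at 6.15, 4.90 and 4.56 FPKM in CSC at 2 weeks, against 2.89, 4.42 and 2.75 at 48 hours. All 18 sterol enzymes had positive changes, with a median of 0.37, against 77.0% of all genes. Of the 33 members, 13 lay higher at 2 weeks without overlap and 1, ABCA1, lower, where the shares of all genes were 28.4% and 4.47%. Under the 3 other scalings 0 members rose. The sterol median was then 0.20 with 13 of 18 positive for median of ratios, 0.07 with 11 positive for a common sum and 0.16 with 13 positive for quantile normalization. Over all genes 1536 rose and 172 fell, against 186 and 243, 85 and 455, and 123 and 201 under these scalings in that order. The count was also 0 with the CSC libraries fitted alone and without CSC 2 weeks replicate 1, 1 without CSC 2 weeks replicate 3 or CSC 48 hours replicate 2, and 2 without DMSO 2 weeks replicate 1. It was 3 when CSC 48 hours replicate 1, either DMSO library of 48 hours, or replicate 2 or 3 of DMSO at 2 weeks was left out.

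Of 44 other genes of the pathway, 42 were tested, and at 2 weeks 4 rose and 0 fell with CSC by limma over all genes tested, where 3.01% of all genes rose and 2.40% fell. The median log2 change of the 42 was -0.08, against 0.09 over all genes. MYLIP, a ubiquitin ligase that LXR is known to induce and that degrades lipoprotein receptors, was at 2.70, 2.51 and 2.48 FPKM in CSC, against 1.06, 1.497 and 1.12 in DMSO at 2 weeks (log2 change 0.84 ± 0.17, limma, adjusted p = 0.0144). APOC1, a small apolipoprotein, was at 75.9, 63.9 and 64.2 FPKM in CSC, against 44.8, 42.1 and 35.8 in DMSO (0.73 ± 0.13, limma, adjusted p = 0.00645). In both genes all CSC libraries of 2 weeks lay above the DMSO libraries. MID1IP1, which activates acetyl-CoA carboxylase, was at 36.1, 24.6 and 28.1 FPKM in CSC, against 15.8, 14.1 and 13.3 in DMSO (1.00 ± 0.19, limma, adjusted p = 0.00978). SLC25A1, the mitochondrial citrate carrier that feeds ACLY, was at 44.4, 29.0 and 36.4 FPKM in CSC, against 26.1, 23.3 and 24.4 in DMSO (0.54 ± 0.14, limma, adjusted p = 0.0464). Again the groups did not overlap in either gene. Listed genes linked to LXR that were not called at 2 weeks include APOE (log2 change 0.56, limma, adjusted p = 0.221) and LPCAT3 (0.20, 0.525). NPC1 (-0.53, limma, adjusted p = 0.0563) and NPC2 (-0.33, 0.163), also on the list, had negative changes and were not called. MLXIPL (0.09, limma, adjusted p = 0.829) and the receptor genes NR1H2 (0.19, 0.451) and NR1H3 (0.15, 0.540) were not called either. Activity of LXR was not tested.

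The call for APOC1 held in each of 21 alternative fits. That for MYLIP was lost without DMSO 2 weeks replicate 1 (limma, adjusted p = 0.0659) or replicate 3 (0.0679) and without CSC 2 weeks replicate 1 (0.0613) or replicate 3 (0.0606), and that for MID1IP1 without DMSO 2 weeks replicate 3 (0.0506). That for SLC25A1 held in 10 of 21, with adjusted p of 0.00774 to 0.166. It was lost without any 1 of the libraries DMSO 48 hours replicates 2 and 3, CSC 48 hours replicates 1 and 2, DMSO 2 weeks replicates 1, 2 and 3 and CSC 2 weeks replicates 1 and 3, with no filter (limma, adjusted p = 0.0890) and under median-of-ratios scaling (0.0547). At 48 hours 0 of the 42 were called with CSC by limma, and MYLIP averaged 2.06 ± 0.566 FPKM in CSC and 2.03 ± 0.248 in DMSO (SD). With time 0 of the 42 were called in DMSO by limma, where 0.768% of all genes were, and 9 rose and 0 fell in CSC, where 12.3% of all genes rose. The all-gene count behind that share, 1536, was 85 to 186 under the 3 other scalings.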

How the data were processed

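Per the labels' protocols, ribosomal RNA was depleted with a Ribo-Zero Gold kit, libraries were sequenced by Illumina and reads were aligned to hg19 with TopHat2 2.0.9. The submitters' processing notes also list CASAVA 1.7.1a5. What quantified the reads, with which annotation, strand setting and scaling, is not stated in the labels or headers, so overlapping and antisense genes may share reads. The authors deposited 1 FPKM per gene and locus with bounds, in 25275 lines per library, and values were summed per symbol. Gene positions are 1-based.

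FPKM are not counts, so limma 3.58.1 (R 4.3.3, eBayes with trend) was run on log2(FPKM + 0.5), which understates the change of weakly expressed genes. The 12506 genes that reached an FPKM of 1 in 2 or more libraries entered 1 fit of 11 libraries in 4 groups, with Benjamini-Hochberg adjustment over all of them and calls at an adjusted p under 0.05. The procedure was run on simulated data with known changes, and the outcome is not given here. That simulation used independent noise in each gene and held no shift of a whole library. One gene with a failed estimate was left out.

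The members and lists were chosen with earlier results of these data known. Values per library are given for SREBF1, SREBF2, INSIG1, SQLE, HMGCS1, SCD, FASN, ABCA1 and ABCG1. In the groups compared they are also given for members called in a CSC or time comparison. The same holds for the 4 members with the smallest p in each CSC comparison. Other genes of the pathway are named where called in a CSC comparison, and some where linked to LXR. Of that list 4 genes are not reported here. Further members, other genes of the pathway and markers were named after their values were seen.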

Additional observations from a re-analysis of the deposited data

How the results depend on the processing

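Settings tried were pseudocounts of 0.1 and 1, no filter, a minimum FPKM of 5, the 3 scalings named above, robust eBayes, a replicate block, fitting the compared libraries alone, and leaving out each library in turn. For 74 results on single genes in the CSC comparisons there were 1546 alternative values. Of these, 1512 kept their side of the threshold, 18 passed it newly and 16 no longer passed. The sign changed in 0 cases where either fit passed the threshold. Changes that missed it in both fits did change sign in some settings. FADS2 at 2 weeks, for example, kept its sign in 16 of 21 fits. Counts of members called with CSC at 48 hours and for the difference of the CSC effects stayed at 0 throughout. At 2 weeks the members higher with CSC numbered 1, against 2 with a pseudocount of 0.1, 2 with a replicate block, 4 with the compared libraries alone, and 1 to 4 with 1 library left out. The members lower numbered 0, against 1 under median-of-ratios scaling, a common sum and quantile normalization (ACLY each time), and 0 to 2 with 1 library left out. With time in DMSO, 0 members were higher, against 2 with the compared libraries alone and 0 to 1 with 1 left out, and 1 was lower, against 4 and 1 to 2. With time in CSC, 5 were higher, against 0 under each of the 3 scalings, 0 with the compared libraries alone, 7 with a replicate block and 0 to 6 with 1 left out, and 0 were lower, against 1 under median-of-ratios scaling, 1 with a common sum, 1 with a replicate block and 0 to 1 with 1 left out. Fitting the compared libraries alone estimates the spread from fewer samples. Leaving out a library outside the comparison keeps the log2 change as it was and alters only the estimated spread and the genes tested. For the other changes the cause was not tested.

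The labels do not say that replicate numbers pair libraries, and deviations of same-numbered libraries did not correlate throughout: above 0.1 in 5 of 15 pairs (from -0.20 to 0.31), among them all 3 pairs of replicate 1. As a hint from the data, 7 of 11 libraries correlated best with their own number. The replicate block gave 595 genes higher and 350 lower at 2 weeks, against 376 and 300 without it. Over all genes, calls higher at 2 weeks ran from 73 to 1310 with 1 library left out. Depth in reads is unknown, so changes too small for 2 or 3 libraries per group were not detectable, which does not show that they are absent.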
